A study of Homo sapiens with 9 samples.

Results

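The genes described here are 10 histone genes whose transcripts were read in the polyadenylated RNA of a breast cancer line. They were taken by symbol from the deposited table, 10 of its 27315 rows. The rule set no value to be met, but the genes were chosen with earlier results of these data known. H2AFZ, H2AFX, H2AFY and H2AFJ encode variants of histone H2A, and H3F3A and H3F3B both encode the H3 variant H3.3. HIST1H2BD, HIST1H2BK, HIST1H2AC and HIST1H1C are genes of the large histone cluster on chromosome 6. A further 82 rows of the table carry histone names, and they are used below only for comparison.

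The RNA came from MDA-MB-468, an established cell line of basal triple-negative breast carcinoma. The cells were infected with lentivirus carrying a pLKO.1 hairpin vector and selected with an antibiotic, and there were 3 groups of 3 libraries: a control group with a scrambled hairpin and groups with the hairpin sh1 or the hairpin sh6 against BBOX1, the enzyme of the last step of carnitine synthesis. Every group, the control included, thus carried a virus, and all 9 libraries came from the same line. The labels give the target of sh1 and of a hairpin called sh2, while that of sh6 was not found in the labels. The labels speak of triplicates without saying whether each was grown and infected apart, so the p-values cover the scatter among these libraries, which may be technical.

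Most histone mRNA in a dividing cell comes from replication-dependent genes, which lie in clusters, are switched on in S phase and end not in a poly(A) tail but in a short stem-loop, bound by the protein SLBP. The variant genes lie outside the clusters, are transcribed through the cell cycle and have ordinary polyadenylated mRNAs. Some clustered genes, and H2AFX, can also be transcribed past the stem-loop to a poly(A) site, and it is that form which a poly(A) selection keeps. Levels of clustered histone genes and of H2AFX in such libraries are therefore levels of their polyadenylated form and not of all their mRNA.

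The stem-loop can be read in the reference transcripts (GENCODE 29, build GRCh38) and marks the genes that hold a stem-loop site. The motif searched was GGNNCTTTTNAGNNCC, on the transcript strand. It was present in 3 of the 10 genes, each time in the 3′ UTR, and is printed here with 5 bases on either side and the motif in capitals.
H2AFX, chr11:119094893-119094918, minus strand: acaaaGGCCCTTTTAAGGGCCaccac
HIST1H2AC, chr6:26124664-26124689, plus strand: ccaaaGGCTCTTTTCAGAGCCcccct
HIST1H2BD, chr6:26158582-26158607, plus strand: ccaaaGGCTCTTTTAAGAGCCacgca

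In H2AFX the motif began 52 bases after the last amino acid codon and the annotated transcript ran 1044 bases beyond it. In HIST1H2AC-202 it began 46 bases after that codon and 1114 bases followed, and HIST1H2AC-203 lacked it. In HIST1H2BD the transcript with the motif, HIST1H2BD-202, had only 39 bases after it, and the other annotated transcript, HIST1H2BD-201, lacked the motif. The annotated transcripts of HIST1H1C and HIST1H2BK end at the coding sequence, so no motif could be found there. Among all 19652 genes with a coding transcript, 51 (0.26%) held the motif, and 32 of 91 histone genes (35.2%) did. The 91 hold variant genes as well as clustered ones. How many of them have annotated transcripts that end at the coding sequence was not counted.

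Promoter sequence differed between the genes as well. RefSeq promoter windows (build GRCh38.p14) were found for 10 of the 10 genes through their current names. For 4 of them the 250 bases before the RefSeq transcription start are shown. H2AFX and H2AFJ moved furthest from the control on the deposited log2 scale, in opposite directions. HIST1H2AC and HIST1H2BK are clustered genes that moved with sh1. Capitals mark the motif CCAAT, the TATA motif TATAAA and the octamer motif ATTTGCAT on either strand. In HIST1H2BK the first capitals are 2 overlapping TATAAA matches on opposite strands.
H2AFX, chr11:119095466-119095715, minus strand: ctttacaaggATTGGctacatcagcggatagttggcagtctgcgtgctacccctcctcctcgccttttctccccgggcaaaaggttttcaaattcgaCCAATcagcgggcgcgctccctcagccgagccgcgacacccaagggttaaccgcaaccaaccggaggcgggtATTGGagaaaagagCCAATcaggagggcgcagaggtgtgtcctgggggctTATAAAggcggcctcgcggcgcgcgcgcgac
H2AFJ, chr12:14774155-14774404, plus strand: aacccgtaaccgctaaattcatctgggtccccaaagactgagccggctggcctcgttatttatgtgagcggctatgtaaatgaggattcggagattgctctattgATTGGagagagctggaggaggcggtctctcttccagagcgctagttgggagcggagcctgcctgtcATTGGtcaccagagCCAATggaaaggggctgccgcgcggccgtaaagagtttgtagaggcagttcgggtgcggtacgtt
HIST1H2AC, chr6:26123922-26124171, plus strand: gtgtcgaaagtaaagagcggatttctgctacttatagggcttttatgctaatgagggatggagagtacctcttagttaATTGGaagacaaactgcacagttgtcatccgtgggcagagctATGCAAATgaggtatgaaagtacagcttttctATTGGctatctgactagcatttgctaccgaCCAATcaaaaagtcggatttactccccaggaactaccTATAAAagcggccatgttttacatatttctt
HIST1H2BK, chr6:27146859-27147108, minus strand: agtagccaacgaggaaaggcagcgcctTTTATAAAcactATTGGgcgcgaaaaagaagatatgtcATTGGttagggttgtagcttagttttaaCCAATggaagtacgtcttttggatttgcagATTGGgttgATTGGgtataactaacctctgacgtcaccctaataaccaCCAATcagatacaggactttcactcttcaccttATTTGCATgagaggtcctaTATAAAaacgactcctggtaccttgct

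The H2AFX and H2AFJ windows share a pair of CCAAT matches near the start, 81 and 67 bases before it in H2AFX and 79 and 65 bases before it in H2AFJ. H2AFX also has TATAAA 31 bases before the start, and the H2AFJ window has none. Among the 10 genes, CCAAT was in the first listed window of 9, TATAAA in that of 6 and the octamer in that of 3, namely H3F3B, HIST1H2AC and HIST1H2BK. Of all 35116 promoter windows of the same length, 34.6% held CCAAT, 11.5% TATAAA and 1.77% the octamer. These matches describe letters and not bound sites.

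The deposited values are log2-like values after a variance-stabilising transformation. They were turned back into normalised counts, that is read counts scaled to a common depth, because counts can be read directly, while tests and log2 differences used the deposited scale. A log2 difference on that scale understates the change of genes with few reads, so folds below are ratios of mean normalised counts. Each library held 15741040 to 19755097 reads by this reckoning. A gene was tested if its mean value was at least 1 above the table's floor, a normalised count of 16.2, which kept 13165 genes, and "called" means an adjusted p under 0.05 in limma's moderated test across those genes. BBOX1 itself had normalised counts of 2703, 2785 and 2360 in the controls, 324, 346 and 328 with sh1 and 606, 618 and 581 with sh6. Its mRNA fell with both hairpins, with limma adjusted p of 3.73e-25 and 6.15e-22. The 10 basal and epithelial markers of the line, such as EGFR and KRT5, were all tested and summed to 139154 to 152671 per library, PGR was at 0 in all 9 libraries, ESR1 was at 96.9 to 255 normalised counts and ERBB2 at 579 to 1116. The ERBB2 libraries lay lower with both hairpins than in the controls, and the part of these genes in the histone differences was not tested.

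All 10 histone genes passed the filter on low values. With sh1, all 10 were called, 7 higher and 3 lower, and for all 10 the sh1 and control libraries did not overlap. This stands against a wide background: with sh1, 58.9% of all genes tested were called (29.0% higher and 30.0% lower) and in 64.1% the groups did not overlap. With sh6, 6 of the 10 were called, 4 higher and 2 lower, and 6 did not overlap. Among all genes tested with sh6, 67.8% were called (34.2% higher and 33.6% lower) and 68.4% did not overlap, so the 6 of 10 is close to that share. Between the hairpins, sh6 against sh1, 7 were called, 3 higher and 4 lower with sh6, and 8 did not overlap, beside 59.7% of all genes called (30.8% higher and 28.9% lower) and 65.3% not overlapping. The median log2 difference of the 10 genes was 0.32 with sh1 and 0.07 with sh6, beside medians over all genes tested that were below 0.01 for either hairpin.

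**Figure D1:**
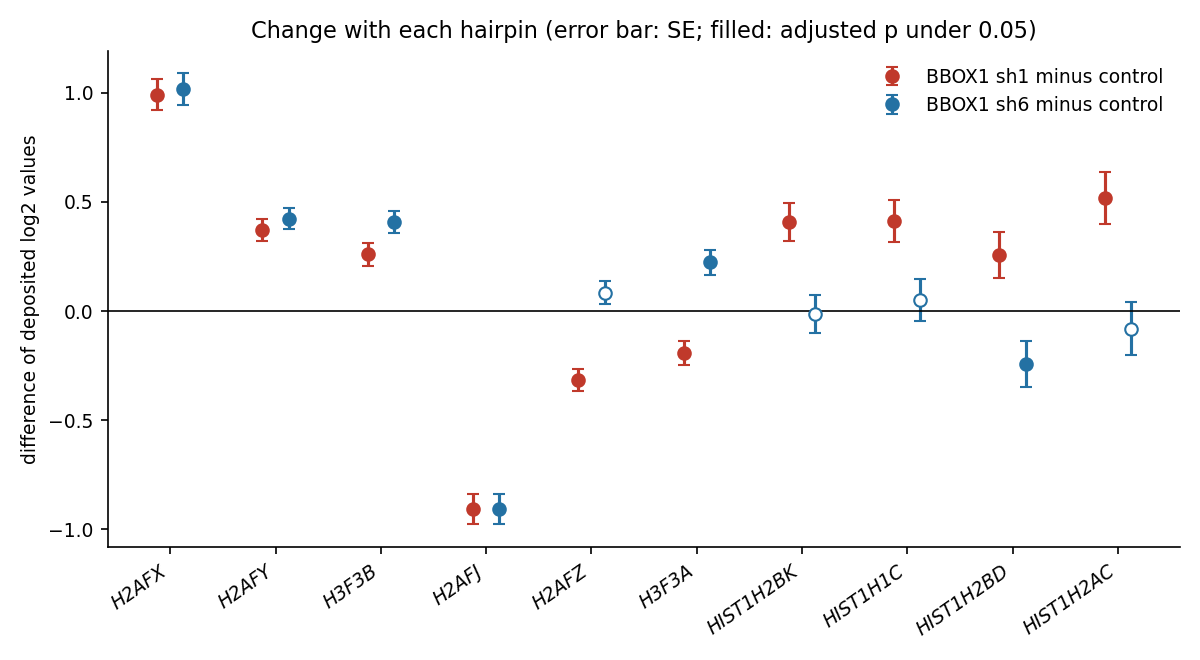
Difference of the deposited log2 values from the control (vertical axis) for each of the 10 histone genes, sh1 in red and sh6 in blue; bars are the standard error of limma's fit on 3 against 3 libraries and filled points have an adjusted p under 0.05. H2AFX stands highest, at 0.99 and 1.02, and H2AFJ lowest, at -0.91 with either hairpin, while for the 4 HIST1 genes at the right the red points lie above the blue ones.

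On the deposited log2 scale the largest changes from the control were those of 2 H2A variants, and they ran in opposite directions. As a ratio of mean normalised counts HIST1H2AC, which had few reads, rose more with sh1 than either of them changed. H2AFX (chr11:119093854-119095467, minus strand, GRCh38 as for all positions here) encodes H2A.X, the variant that is phosphorylated in the chromatin around DNA breaks. Its normalised counts were 657, 615 and 677 in the controls, 1263, 1388 and 1411 with sh1 and 1618, 1289 and 1250 with sh6. Every hairpin library lay above every control, and the hairpin groups overlapped each other. H2AFX was 2.08-fold higher with sh1 (log2 difference 0.99, SE 0.0728, limma adjusted p 5.04e-13) and 2.13-fold higher with sh6 (log2 difference 1.02, limma adjusted p 1.78e-13). The difference between the hairpins was 0.02 (SE 0.0728, limma adjusted p 0.787). The first sh6 library was the highest of the 9, and without it the log2 difference of sh6 from control was 0.90.

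H2AFJ (chr12:14774383-14778002, plus strand) encodes H2A.J, a variant known for its accumulation in senescent cells. Its normalised counts were 1191, 1237 and 1093 in the controls, 554, 641 and 595 with sh1 and 654, 569 and 567 with sh6. All 6 hairpin libraries lay below the lowest control, and again the hairpins overlapped. H2AFJ fell 1.97-fold with either hairpin (log2 differences of -0.91 and -0.91, SE 0.0693, limma adjusted p 1.27e-12 with sh1 and 7.98e-13 with sh6). The difference between the hairpins was -0.000644 (limma adjusted p 0.995).

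In the controls H2AFJ had 1173 ± 73.8 normalised counts and H2AFX 650 ± 31.8 (SD, n = 3). With sh1 the order was turned, at 597 ± 43.4 for H2AFJ and 1354 ± 79.3 for H2AFX. Per kilobase of the longest annotated transcript, which is 1614 bases for H2AFX and 644 for H2AFJ, H2AFJ was the more abundant in the controls, at 1822 ± 115 against 402 ± 19.7 (SD, n = 3). With the hairpins the levels per kilobase overlapped, at 926 ± 67.5 against 839 ± 49.1 with sh1 and 926 ± 77.2 against 859 ± 125 with sh6 (SD, n = 3).

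Smaller rises with both hairpins were seen for H2AFY and H3F3B. H2AFY (chr5:135333900-135399914, minus strand) encodes macroH2A1, a large H2A variant with a globular domain attached to its histone fold that is enriched on silent chromatin. Its normalised counts were 6070, 6130 and 6469 in the controls, 7953, 8107 and 8145 with sh1 and 8260, 8500 and 8332 with sh6. The 3 groups did not overlap, with sh6 highest. After quantile normalisation, however, the log2 difference of sh6 from sh1 was -0.10 (limma adjusted p 0.0662). H2AFY rose 1.30-fold with sh1 (log2 difference 0.37, limma adjusted p 1.43e-07) and 1.34-fold with sh6 (0.42, limma adjusted p 8.4e-09), and the hairpins differed by 0.05, which was not called (limma adjusted p 0.382).

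H3F3B (chr17:75776434-75785893, minus strand) encodes, as H3F3A does, H3.3, the H3 that can be placed in chromatin outside S phase. It had 8072, 8600 and 7971 normalised counts in the controls, 9767, 9734 and 10016 with sh1 and 10509, 11284 and 10970 with sh6. These groups did not overlap either, and the order was control, sh1, sh6. It rose 1.20-fold with sh1 (log2 difference 0.26, limma adjusted p 6.48e-05) and 1.33-fold with sh6 (0.41, limma adjusted p 3.04e-08). The difference between the hairpins, 0.15 (limma adjusted p 0.0129), was not called without the second sh6 library (adjusted p 0.0746), and after quantile normalisation it was -0.00458 (adjusted p 0.942). The reads of H3F3B and of UNK, a gene annotated on the opposite strand over part of it, and those of H2AFY and the antisense C5orf66, cannot be told apart if counting ignored the strand, on which the labels are silent.

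**Figure D2:**
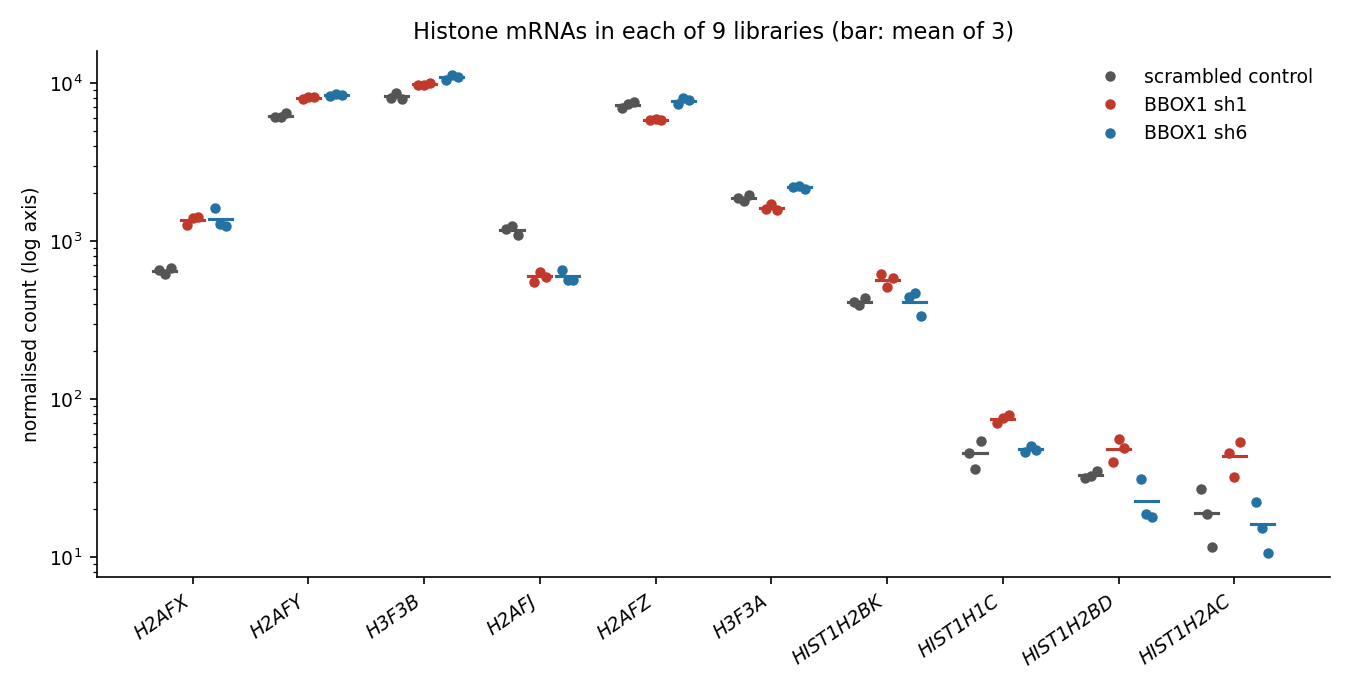
Normalised count (log axis) of the 10 histone genes in each of the 9 libraries: control grey, sh1 red, sh6 blue, a point per library and a bar at the mean of 3. The hairpin points lie above all controls for H2AFX, H2AFY and H3F3B and below them for H2AFJ, and for H2AFZ and H3F3A the red points alone lie below.

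H2AFZ and H3F3A responded differently to the hairpins. H2AFZ (chr4:99948086-99950388, minus strand) encodes H2A.Z, the variant of the nucleosomes that flank active promoters. Its normalised counts were 6938, 7412 and 7527 in the controls, 5791, 5893 and 5846 with sh1 and 7347, 8018 and 7847 with sh6. The sh1 libraries lay below all others, and the sh6 and control libraries overlapped. It was 1.25-fold lower with sh1 (log2 difference -0.32, limma adjusted p 4.75e-06), while the difference with sh6 was 0.08 and was not called (limma adjusted p 0.148). That difference was called without the first sh6 library (0.12, adjusted p 0.0442) and with array weights (0.15, adjusted p 0.00178). The hairpins differed by 0.40 (limma adjusted p 8.58e-08). After quantile normalisation the difference with sh1 was -0.17 (limma adjusted p 0.00487) and that between the hairpins 0.27 (limma adjusted p 2.97e-05).

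H3F3A (chr1:226061851-226072001, plus strand) had 1869, 1778 and 1941 normalised counts in the controls, 1595, 1702 and 1572 with sh1 and 2188, 2218 and 2143 with sh6. All sh1 libraries lay below and all sh6 libraries above the controls. It fell 1.15-fold with sh1 (log2 difference -0.19, limma adjusted p 0.00358) and rose 1.17-fold with sh6 (0.22, limma adjusted p 7.29e-04). The hairpins differed by 0.41 (limma adjusted p 1.45e-07). The genes H3F3A and H3F3B code for the same protein, and with sh1 their mRNAs moved in opposite directions. Processed pseudogenes, known for H3F3A among other variant genes, can share reads with their parent genes, which was not examined.

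The 4 clustered genes were higher with sh1, and none of them was called higher with sh6. HIST1H2BK (chr6:27146418-27146798, minus strand), an H2B gene, was the only abundant one, with normalised counts of 409, 394 and 437 in the controls, 618, 511 and 579 with sh1 and 439, 465 and 333 with sh6. Its sh1 libraries lay above all others. It rose 1.38-fold with sh1 (log2 difference 0.41, limma adjusted p 1.57e-04). With sh6 the difference was -0.01 (limma adjusted p 0.906), and the hairpins differed by -0.42 (limma adjusted p 1.07e-04).

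HIST1H1C (chr6:26055787-26056428, minus strand), which encodes the linker histone H1.2, had 45.7, 36.2 and 53.9 normalised counts in the controls, 70.9, 75.4 and 79.4 with sh1 and 46.1, 50.7 and 47.7 with sh6. It was 1.66-fold higher with sh1 (log2 difference 0.41, limma adjusted p 5.01e-04), and the sh6 libraries lay within the range of the controls (0.05, limma adjusted p 0.648). The hairpins differed by -0.36 (limma adjusted p 0.00185).

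The other 2 clustered genes were near the filter. HIST1H2AC (chr6:26124145-26139116, plus strand), an H2A gene, had 27.1, 18.7 and 11.5 normalised counts in the controls, 45.3, 32.2 and 53.6 with sh1 and 22.4, 15.3 and 10.6 with sh6. The sh1 libraries were again above all others, though the controls themselves spread more than 2-fold. It was 2.29-fold higher with sh1 (log2 difference 0.52, SE 0.12, limma adjusted p 4.47e-04) and not called with sh6 (-0.08, limma adjusted p 0.567), and the hairpins differed by -0.60 (limma adjusted p 7.99e-05). With array weights the difference with sh6 was called, at -0.23 (adjusted p 0.0449).

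HIST1H2BD (chr6:26158146-26171349, plus strand), an H2B gene, had 31.7, 32.4 and 35.2 normalised counts in the controls, 40.2, 55.6 and 48.7 with sh1 and 31.2, 18.6 and 18.0 with sh6. The first sh6 library lay just under the lowest control and the other 2 well below. It was 1.45-fold higher with sh1 (log2 difference 0.26, SE 0.105, limma adjusted p 0.0357) and 1.46-fold lower with sh6 (-0.24, limma adjusted p 0.0445), and the hairpins differed by -0.50 (limma adjusted p 1.53e-04). The 2 differences from the control rested on 17 to 55 reads a library and were close to the threshold: the call with sh1 was lost without control 1 or 2 or without sh1 library 2 or 3 (adjusted p 0.0834, 0.0698, 0.152 and 0.0797), and the call with sh6 without any 1 control, without sh1 library 3 or without sh6 library 2 or 3 (0.0632, 0.0669, 0.0990, 0.0511, 0.154 and 0.17). The difference between the hairpins was called without any 1 library, with adjusted p of at most 0.00251.

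Summed, the 4 clustered genes gave 481 to 537 normalised counts in the controls, 674 to 774 with sh1 and 410 to 550 with sh6. Most of each sum came from HIST1H2BK. In bulk RNA, fewer cells that express a gene and less RNA per cell cannot be told apart. The marker sums of other cell types moved with the hairpins as well: leucocyte markers summed to 199 to 229 in the controls, 74.5 to 92.6 with sh1 and 135 to 139 with sh6, and endothelial markers to 237 to 267, 86.2 to 116 and 88.4 to 111. Of the 5 leucocyte genes CD68 alone, and of the 4 endothelial genes KDR alone, passed the filter on low values, and PTPRC, CD3E, CD79A, LYZ, CDH5 and VWF were at 7.94 normalised counts or fewer in every library. Fibroblast markers summed to 286 to 444 over all 9 libraries, and 1 of these 6 genes passed the filter. The part of these genes in the histone differences was not tested.

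**Figure D3:**
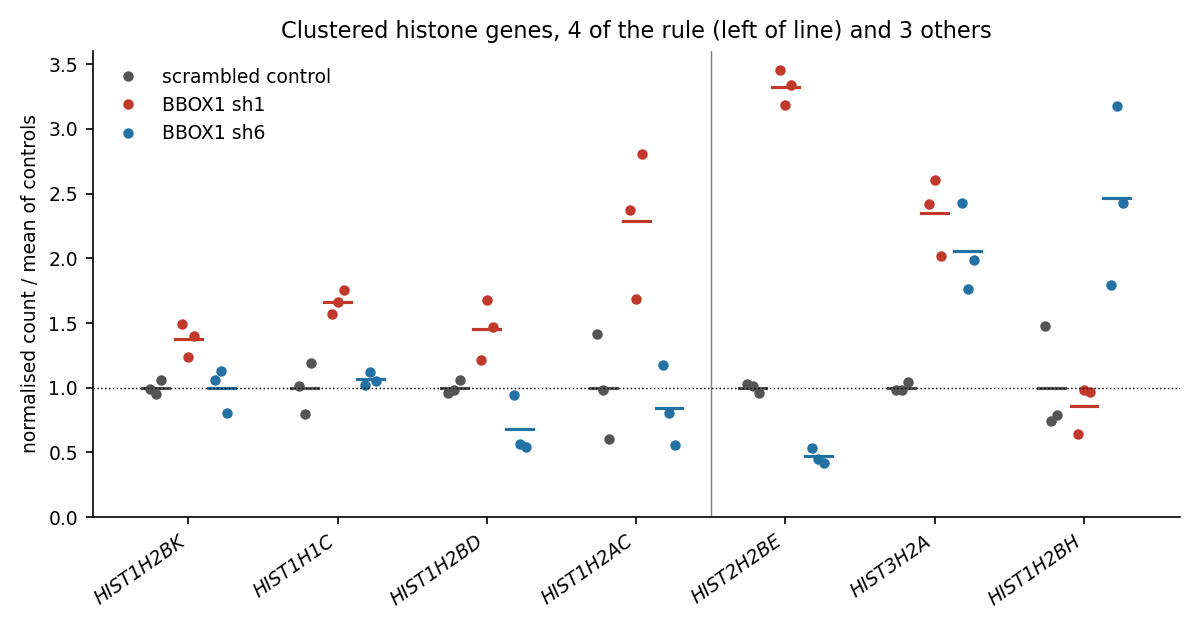
Normalised count of clustered histone genes in each library divided by the mean of the 3 controls (grey control, sh1 red, sh6 blue, bars at group means), for the 4 HIST1 genes left of the line and 3 further histone genes right of it. All sh1 points of the 4 genes lie above 1; HIST2H2BE lies above 3 with sh1 and near 0.5 with sh6, and the sh6 points of HIST1H2BH lie above all its other points.

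The other clustered histone genes were scarcely present in these libraries. Of 69 further rows with HIST symbols, 15 were at the floor in all 9 libraries, 66 had a mean normalised count under 10, and 1, HIST3H2A, passed the filter. Together they summed to 108 to 123 normalised counts in the controls, 172 to 192 with sh1 and 148 to 164 with sh6. These ranges did not overlap. A large share came from 3 genes picked after their values were seen, HIST2H2BE, HIST3H2A and HIST1H2BH, and without them the sums were 77.2 to 91.2 in the controls, 95.9 to 122 with sh1 and 91.0 to 107 with sh6, so that the sh6 range met that of the controls.

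HIST2H2BE, an H2B gene of the cluster on chromosome 1, was picked after its values were seen, and they are given as a description with no test. It had 10.4, 10.3 and 9.68 normalised counts in the controls, 34.9, 32.2 and 33.8 with sh1 and 5.38, 4.56 and 4.25 with sh6. It lay under the filter. HIST3H2A had 12.8 ± 0.459 in the controls, 29.95 ± 3.79 with sh1 and 26.3 ± 4.29 with sh6 (SD, n = 3). Its controls lay under the filter, so it was tested only through the hairpin groups, where it is high, and its calls with both hairpins, counted below, support nothing. HIST1H2BH, under the filter, had 16.7, 8.34 and 8.88 in the controls, 7.22, 11.1 and 10.9 with sh1 and 20.2, 35.9 and 27.4 with sh6.

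Of all 82 other histone rows, 6 were tested. With sh1, 2 were higher and 1 lower, beside 58.9% of all genes called, and with sh6, 3 were higher and 2 lower, beside 67.8%. H2AFY2, which encodes macroH2A2, the paralogue of macroH2A1, was higher with both hairpins, at 794, 1056 and 1267 mean normalised counts in control, sh1 and sh6 (log2 differences 0.38 and 0.63, limma adjusted p 1.28e-05 and 1.21e-09). CENPA, the H3 variant of centromeres, fell with sh1 from 803 to 554 (-0.49, limma adjusted p 1.45e-07) and was at 747 with sh6 (-0.10, limma adjusted p 0.19). H1F0, the linker histone H1.0 known from resting and differentiated cells, fell with sh6 from 2473 to 1927 (-0.35, limma adjusted p 4.02e-06). H2AFV, the second gene for H2A.Z, was lower with sh6 by a small step (-0.13, limma adjusted p 0.0257). With sh1 it was at -0.11, which was not called (limma adjusted p 0.0856 without the filter), and the hairpins differed by -0.02. H1FX, the linker histone H1.10, was higher with sh6 (0.17, limma adjusted p 0.0414, but 0.0562 and not called without the filter).

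Across genes, levels are compared per kilobase of the longest annotated coding transcript. In the controls H2AFZ was highest at 7449 normalised counts per kilobase, then H3F3B at 3037, H2AFY at 2231 and H2AFJ at 1822. HIST1H2BK at 1085 and H3F3A at 999.9 followed and overlapped each other. Then came H2AFX at 402, HIST1H1C at 70.5, HIST1H2BD at 41.9 and HIST1H2AC at 11.5. Neighbours in this order other than HIST1H2BK and H3F3A did not overlap over the 3 controls. The order depends on the transcript: with the shortest transcript of each gene H3F3B stood at 14908, above H2AFZ, and the transcripts of HIST1H1C and HIST1H2BK hold only the coding sequence, which makes their levels per kilobase too high if the RNA has longer ends.

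Over the 9 libraries the 10 genes fell into sets that moved together. Pearson correlations of the deposited values are given as a description over 9 libraries that share 3 groups, so that group differences carry them. H2AFX, H2AFY and H3F3B correlated at 0.87 to 0.97 with each other and at -0.98 to -0.90 with H2AFJ. H2AFZ and H3F3A correlated at 0.89. The 4 HIST1 genes correlated at 0.68 to 0.84 with each other and at -0.92 to -0.64 with H2AFZ and H3F3A. The H3.3 genes H3F3A and H3F3B correlated at only 0.35. Likeness to all genes tested was listed for H2AFX, which had the widest range of group means, and for H3F3B, which had the highest mean. Those most like H2AFX were GATAD2A (r = 0.993), PIGQ (0.993) and PDLIM1 (0.991), of 295 genes above 0.95. Those most like H3F3B were RNF219 (0.988), RAN (0.985) and MRPL19 (0.984), of 174 genes above 0.95.

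**Figure D4:**
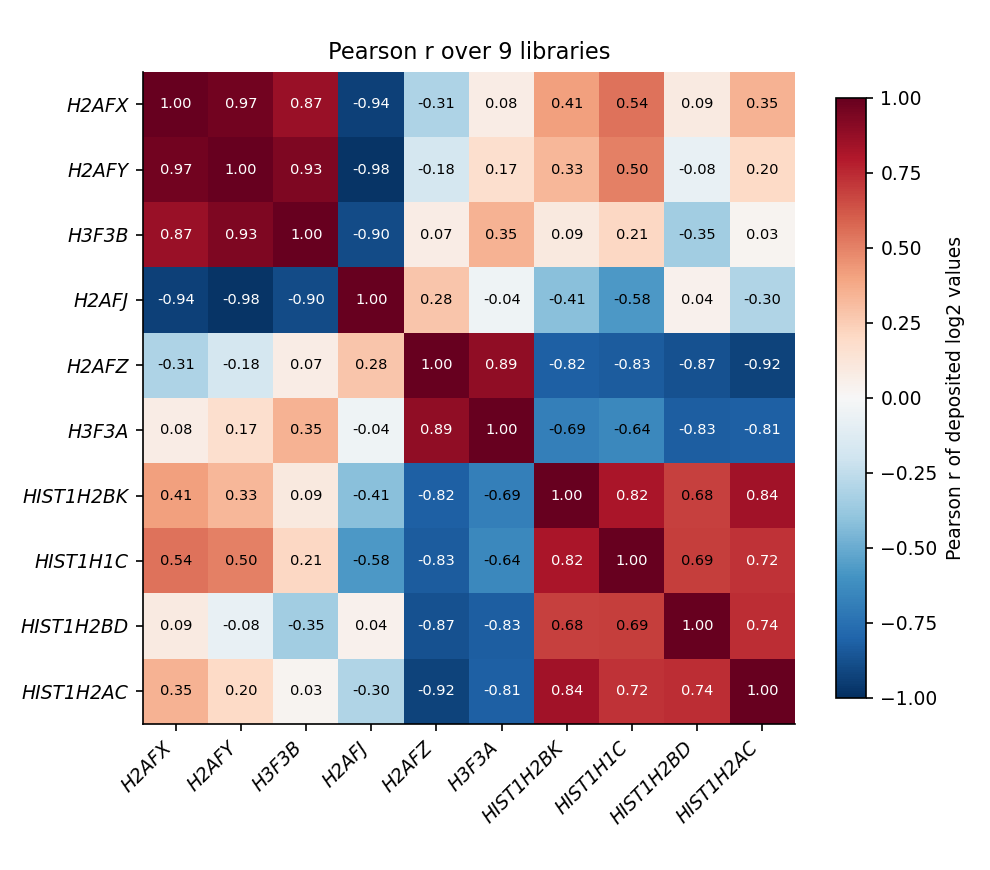
Pearson correlation of the deposited log2 values over the 9 libraries for every pair of the 10 histone genes, red positive and blue negative. The upper left block of H2AFX, H2AFY and H3F3B, opposed to H2AFJ, and the lower right block of the 4 HIST1 genes, opposed to H2AFZ and H3F3A, are the sets named in the text.

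Genes that make and trim histone transcripts were counted next. Of 21 such genes, all tested, 9 were higher and 4 lower with sh1 (median log2 difference 0.08), and 15 were higher and 1 lower with sh6 (median 0.22). Between the hairpins 14 were higher with sh6 (median 0.23), beside 30.8% of all genes tested. UPF1, the helicase of nonsense-mediated decay that also takes part in histone mRNA decay, rose with both hairpins (log2 differences 0.28 and 0.74, limma adjusted p 0.00204 and 3.3e-10), though its sh1 and control libraries overlapped. ZNF473, a zinc finger protein of histone 3′ processing, rose by 0.31 and 0.56 (limma adjusted p 6.48e-05 and 2.39e-09). CSTF2, a subunit of the cleavage stimulation factor of polyadenylation, rose by 0.22 and 0.53 (limma adjusted p 0.0051 and 2.46e-08).

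NPAT, the coactivator of replication-dependent histone genes, had mean normalised counts of 1054 in the controls, 778 with sh1 and 1236 with sh6. It fell with sh1 (-0.41, limma adjusted p 8.64e-07) and rose with sh6 (0.22, limma adjusted p 0.00207). LSM11, a component of the U7 snRNP that cuts histone pre-mRNA, had 220, 196 and 365 and differed by 0.73 between the hairpins (limma adjusted p 1.79e-09). SLBP, named here after its values were seen because it binds the stem-loop, had 2669, 2428 and 2485 (-0.13 with sh1, limma adjusted p 0.0319, and -0.10 with sh6, limma adjusted p 0.0943).

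Of 32 histone chaperones and variant exchange factors, 31 were tested. With sh1, 12 were higher and 7 lower (median 0.05), and with sh6, 20 were higher and 4 lower (median 0.23). Between the hairpins 17 were higher and 6 lower with sh6 (median 0.15), beside 30.8% and 28.9% of all genes tested. RBBP4, a histone-binding subunit of the CAF-1 chaperone and of several chromatin complexes, fell from 7218 mean normalised counts to 3565 with sh1 (-1.005, limma adjusted p 4.17e-17) and to 5663 with sh6 (-0.35, limma adjusted p 4.2e-07). RUVBL1 and RUVBL2, the paired ATPases of the complexes that exchange H2A.Z, rose with both hairpins (0.64 and 0.41 for RUVBL1, 0.43 and 0.73 for RUVBL2, limma adjusted p of at most 4.2e-07). SUPT16H, a subunit of the FACT chaperone, had 3173, 2807 and 4343 and differed by 0.62 between the hairpins (limma adjusted p 3.81e-11).

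S-phase genes were counted because replication-dependent histone genes are transcribed in that phase. Of 16, all tested, 4 were higher and 6 lower with sh1 (median -0.06), and 9 were higher and 1 lower with sh6 (median 0.22). Between the hairpins 11 were higher with sh6 (median 0.22), beside 30.8% of all genes tested. Their normalised counts summed to 43805 to 47983 in the controls, 42894 to 44188 with sh1 and 51841 to 52378 with sh6. The sh6 libraries thus lay above the rest. The summed clustered histone genes were highest with sh1, but that sum is mostly HIST1H2BK and covers polyadenylated mRNA only. UHRF1, which brings the maintenance methyltransferase to replicated DNA, rose by 0.29 and 1.01 (limma adjusted p 0.0071 and 4.56e-11), with overlap of sh1 and control libraries. MCM3, of the replicative helicase, rose by 0.42 and 0.54, and CDC45, its cofactor, by 0.36 with either hairpin (limma adjusted p of at most 5.56e-06 for both). MCM7 differed by 0.59 between the hairpins (limma adjusted p 2.18e-11). The part of the cell cycle in the histone differences was not tested.

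**Figure D5:**
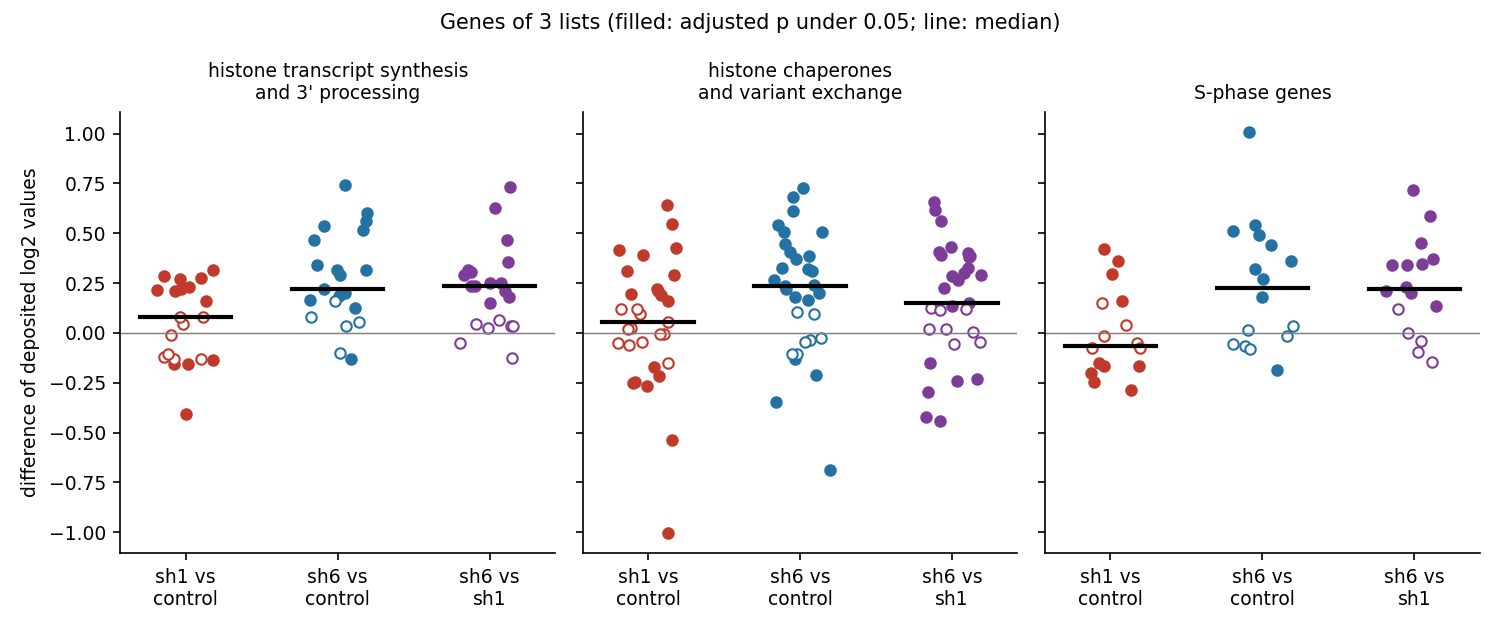
Log2 differences of the deposited values for the genes tested in 3 lists (21 genes of histone transcript synthesis and 3′ processing, 31 chaperones and exchange factors, 16 S-phase genes) in sh1 against control (red), sh6 against control (blue) and sh6 against sh1 (purple); filled points have an adjusted p under 0.05 and lines are medians. The medians with sh6 (0.22, 0.23 and 0.22) lie above those with sh1 (0.08, 0.05 and -0.06).

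The counts of these lists stand beside a background in which 29.0% of genes tested were called higher and 30.0% lower with sh1. With sh6 34.2% were called higher and 33.6% lower. Between the hairpins 30.8% were called higher and 28.9% lower with sh6. The sh1 and sh6 comparisons share their 3 controls, so their values are set side by side and no overlap is drawn from them. The authors' deposited table gives log2 fold changes of a comparison whose samples are not stated. Of the 10 genes, 4 in the authors' deposited table had an adjusted p under 0.05: H2AFX at 1.08 (4.88e-23), H2AFY at 0.40 (1.53e-16), H3F3B at 0.34 (2.8e-05) and H2AFJ at -0.98 (3.89e-27). The other 6 had adjusted p of 0.185 to 0.902 in the authors' deposited table.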

How the data were processed

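Polyadenylated RNA of 9 MDA-MB-468 libraries was sequenced in pairs of 100-base reads, per the labels. Per the submitters' processing notes, hg19 was the build and DESeq2, STAR, Salmon and cutadapt were used, with no version or order named. The authors deposited 1 table of 27315 gene symbols with variance-stabilised log2 values, which its name calls batch-corrected, and the authors' own log2 fold changes and adjusted p-values. No batch is named in the labels.

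The log2 values share a floor of 5.02, and 8075 genes lie on it in all libraries. Inverting the transformation gave normalised counts, and 75.6% to 80.2% of those worth 0.5 to 20.5 reads were whole reads within 0.05. Genes whose mean lay at least 1 above the floor were fitted with limma 3.58.1 in R 4.3.3 (3 groups, 9 libraries, eBayes with a mean trend, two-sided), with Benjamini-Hochberg adjustment over 13165 genes. The fit was tested on simulated data. The 10 genes and all lists were chosen with earlier results of these data known. Named are all 10 genes, tested histone genes, and from each other list the 3 genes called with both hairpins with the largest mean change and the 2 with the largest change between hairpins. Coordinates are GRCh38 from the annotation, not the build of the counts. Alternatives changed scaling, filter, prior, weights, samples, threshold and the replicate block, and left out each library. A marker gene of the line is not reported here.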

Additional observations from a re-analysis of the deposited data

Results flagged for a closer look

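For 2 of the 10 genes the hairpins moved in opposite directions from the shared controls, each called, and the difference between the hairpins was called as well. H3F3A was lower with sh1 and higher with sh6, and sh6 differed from sh1 by 0.41 on the log2 scale (limma adjusted p 1.45e-07, and at most 4.07e-05 under every alternative run). HIST1H2BD was higher with sh1 and lower with sh6, and sh6 differed from sh1 by -0.50 (limma adjusted p 1.53e-04, and at most 0.00251 under every alternative run that kept the gene). Its calls against the control were less firm, with adjusted p of up to 0.152 with sh1 and 0.17 with sh6 under the alternatives run. The 3 libraries of each hairpin lay on opposite sides of the 3 controls for both genes.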

How the results depend on the processing

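Over the 30 differences of the 10 genes, the other settings left 520 values with their direction and call, ended 19 calls with the sign kept, made 3 and reversed 19 signs. The reversed differences were not called before, except that of H3F3B between the hairpins, which also lost its call. Reversed without a call, sh6 against control, was HIST1H2BK with medians set equal (0.0131), quantile normalisation (0.0211) and array weights (0.0428). Between the hairpins the reversed values were H2AFJ at 0.00656 with medians set equal and 0.00342 after quantile normalisation, H2AFX at -0.0206 after quantile normalisation and -0.0312 with array weights, H2AFY at -0.10 and H3F3B at -0.00458 after quantile normalisation. The number of genes called lower with sh6 was 1 in place of 2 with medians set equal, quantile normalisation, no filter, a mean at least 2 above the floor, only the groups compared, or a threshold of 0.01. The stricter filter tested 7 of the 10 genes, with 4 called higher with sh1 in place of 7, and 4 called between the hairpins, 1 of them lower, in place of 7 and 4. HIST1H2BD was also not called with sh1 without the filter (adjusted p 0.0553) or, chosen after seeing the data, on log2 of the normalised count plus 1 (adjusted p 0.0594). The other causes were not tested.

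Leaving out 1 library gave 9 to 10 genes called with sh1 (6 to 7 higher), 5 to 7 with sh6 (4 to 5 higher, 1 to 2 lower) and 6 to 7 between the hairpins (2 to 3 higher). Signs turned on uncalled differences: with sh6, HIST1H2AC ranged from -0.19 to 0.0257, HIST1H1C from -0.0237 to 0.12 and HIST1H2BK from -0.0940 to 0.11, and between the hairpins H2AFX from -0.0871 to 0.0913 and H2AFJ from -0.0623 to 0.0471. Rescaling moved the median of all genes by at most 0.0254. Quantile normalisation moved some abundant genes further with sh1, though each stayed called. H2AFZ was at -0.17 in place of -0.32, H3F3B at 0.42 in place of 0.26 and H2AFY at 0.54 in place of 0.37.

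With the replicate block 10, 6 and 7 of the genes were called with sh1, with sh6 and between the hairpins, as without it, and it changed no other call of the 10 genes. Same-numbered libraries deviated together at correlations of -0.13 to 0.18, and 5 of 9 libraries correlated best with their own number. The name of the deposited table calls it batch-corrected, so an effect shared by same-numbered libraries may have been removed. These correlations therefore cannot decide whether the numbers pair the libraries. Depth limits HIST1H2BD and HIST1H2AC, with 10 to 55 reads a library.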
